A study of Mus musculus with 2 samples.

Results

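The cells that the annotation of the study called Ependymal Cell were examined in whole mouse embryos at E11.5. They were found by that label in the deposited table of cells and joined by barcode to the 4 filtered count matrices, which gave 137 of 5678 cells. F0_8 and F0_9 were suspensions of 1 founder embryo each (F0 generation), F1_1 was made from an F1 embryo, and F1_mix was an artificial mosaic of cells from F1 embryos. All 4 carried a transgene in which the CAG promoter, active in most tissues, drives EGFP linked to a DNA barcode, delivered by the piggyBac transposon. Founders can carry an insertion in only some of their cells, no untransgenic embryo was included, and no tissue was dissected before the embryos were minced and dissociated, so the position of a cell in the embryo is known only from its genes.

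The 137 labelled cells held 1824308 UMIs of genes, a UMI being the molecular tag by which each captured transcript is counted. Their median was 12100 gene UMIs per cell, with a range of 4453 to 31170, against 14209 in the other deep cell types. Median depth was 10882.5 and 11821 in the founders F0_8 and F0_9, and 11534 and 14196 in F1_1 and F1_mix. Deep types are the 12 of 16 annotated types that are not far shallower than the rest. No barcode of these cells occurred in more than 1 suspension. The level of a gene or list is given as UMIs per 10000 gene UMIs, pooled over the 137 cells unless said otherwise, with an exact Poisson 95% interval that covers counting error only.

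Ependymal cells line the ventricles of the mature brain and the central canal, and beat many motile cilia that move the cerebrospinal fluid. They are made late in development from radial glia. At mid-gestation the neural tube instead has a floor plate at its ventral midline, which secretes Shh and netrin, and a roof plate at its dorsal midline, which secretes Wnt and BMP proteins and from which the choroid plexus arises. Several of these midline cells already use Foxj1, the forkhead factor that starts the programme of motile cilia, together with RFX factors, Gmnc and Mcidas. The assembly of the cilium then needs axonemal dyneins (the motors), their assembly factors, and the radial spokes, central pair and inner microtubule proteins.

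The labelled cells were a small share of each suspension. They made up 40 of 1599 cells in F0_8 (2.50%, exact binomial 95% interval 1.79 to 3.39), 32 of 1318 in F0_9 (2.43%, 1.67 to 3.41), 32 of 1310 in F1_1 (2.44%, 1.68 to 3.43) and 33 of 1451 in F1_mix (2.27%, 1.57 to 3.18). The mean of the founders was 0.106 percentage points above that of the F1 suspensions (exact two-sided permutation test, p = 0.667, where 0.33 is the smallest p that 2 against 2 suspensions allow). A barcode of a suspension is a captured cell, so fewer cells in the embryo and poorer recovery in dissociation cannot be told apart.

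The markers of the label were present, but in a minority of the cells. Foxj1 gave 85 UMIs in 29 of 137 cells, a level of 0.466 (95% interval 0.372 to 0.576), and its next highest deep type was Neuronal Progenitor at 0.0613. Founders F0_8 and F0_9 had 0.591 and 0.568, and F1_1 and F1_mix had 0.307 and 0.390, so it was present in every suspension. Rsph1, a radial spoke head protein, had a level of 0.153 in 12 cells, against 0.0425 in Neuronal Progenitor. Tppp3, a tubulin-binding protein, had a level of 0.400 in 30 cells and was higher in CNS Neuron (0.715), while Ccdc153, an axonemal protein, had no UMI in any of the 137 cells, which allows at most 0.0202. Summed, the 4 markers stood at 1.02 (0.878 to 1.18) against 0.742 in CNS Neuron, the next highest deep type, and at 0.178 in droplets that held only free RNA. The genes expected of mature ependyma did not single these cells out, since their summed level of 2.66 was exceeded in 8 other deep types. Of that list, S100b and Aqp4 were each found in 4 cells, Gfap, Tmem212 and Sntn in none, and most of the sum came from Cd24a (1.95), which was higher in Neuroectoderm/Glia (11.1).

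Free RNA can place a few UMIs in any cell, so shares of cells were set beside CNS Neuron, whose median depth of 10898.5 gene UMIs is near that of the labelled cells. Foxj1 was found in 21.2% of the labelled cells and 1.32% of the neurons, Gmnc in 8.76% and 0.564%, Ttr in 7.30% and 0.376%, Pmel in 10.9% and 0.752%, and Sox10 in 22.6% and 2.26%. Tppp3 went the other way (21.9% and 41.0%), and neurons, in which it had the highest level of the other deep types, give no background for it.

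Genes of the motile cilium were higher here than in any other deep type for most members of the 3 lists, each at a low level. Over all genes with a UMI in a deep type, 1784 of 18146 (9.83%) were highest in the labelled cells and the median level was 0.126. Among the regulators of ciliogenesis it was 8 of 12, with a median level of 0.266, and the list summed to 6.98 (6.60 to 7.37) against 5.12 in Neuronal Progenitor. Its largest contributors, Rfx3 (2.57) and Rfx4 (1.83), were higher in CNS Neuron (2.70) and Neuronal Progenitor (2.74), and free RNA gave the same list 6.21, so the sum is carried by genes that are not particular to motile cilia. The dyneins and their assembly factors were highest here in 16 of 18 members found in the table, at 2.37 (2.15 to 2.60) against 1.05 in Neuroectoderm/Glia. Their median level of 0.121 was close to that of all genes. The spokes, central pair and inner microtubule proteins were highest here in 27 of 31 members, at 6.30 (5.94 to 6.67) against 3.25 in Erythroblast, with a median level of 0.143.

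All 3 cilium lists were present in each suspension. In founders F0_8 and F0_9 the regulators stood at 8.90 and 6.72, and in F1_1 and F1_mix at 5.49 and 6.56. In the same order the dyneins stood at 2.77, 2.77, 1.73 and 2.17, and the spokes at 7.29, 8.75, 4.35 and 4.86. In all 3 lists both founders lay above both F1 suspensions. Groups did not overlap in either direction for 35.8% of the genes tested between the generations. The test between generations given further on covered 9 regulators, 5 dyneins or assembly factors and 11 spoke and microtubule genes, and none of these passed. Among single cilium genes that were higher in the labelled cells than in every other deep type were Dnah11, an outer arm dynein (0.148 against at most 0.0271 elsewhere), Zmynd10, a dynein assembly factor (0.0932 against 0.00826), Cfap126 (0.362 against 0.0422), Fam183b (0.356 against 0.0736), Pifo (0.197 against 0.0059) and Dynlrb2 (0.329 against 0.013, and 0.200 without F0_9).

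The promoters of these cilium genes were searched for the X-box, the site of RFX factors, written as GT, CC, GG and AC in that order with 2 free bases after each of the first 3 pairs. The pattern reads the same on both strands. In the RefSeq promoters of GRCm38.p6 (250 bases before to 50 after a transcript start), 52 of the 63 listed cilium genes were matched, with 62 promoters, and 10 of these held the X-box (16.1%) against 618 of all 32851 promoters (1.88%). The forkhead site GTAAACA, on either strand, was in 5 of the 62 (8.06%) and in 1199 of all promoters (3.65%). A match is a description of the letters and not evidence of binding. The windows below are from genes detected in the labelled cells whose match lies upstream of the start, on the strand of the gene, with the X-box in capitals for the first 4 and the forkhead site, read on the opposite strand, in capitals for Mlf1. They lie 82 bases before the start for Cfap126 (chr1:171122955-171122984, plus strand), 87 for Deup1 (chr9:15627912-15627941, minus strand), 20 for Pifo (chr3:106001496-106001525, minus strand), 219 for Ccno (chr13:112987575-112987604, plus strand) and 116 for Mlf1 (chr3:67373973-67373995, plus strand).
Cfap126: tgttcaagGTATCCATGGCTACttctcagt
Deup1: gaggccgcGTCTCCATGGCAACccactggg
Pifo: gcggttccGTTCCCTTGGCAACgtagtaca
Ccno: gggctgcgGTTGCCACGGTGACgacagacg
Mlf1: cgccagtgTGTTTACagaggttg

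The identity lists drew a wider picture than the label, because lists of 6 different tissues were each higher in these cells than in any other deep type. The retinal pigment epithelium and eye field list had the largest ratio to the next type, at 9.12 (8.69 to 9.57) against 0.542 in Hematoendothelial Progenitor/Endothelium, with 9 of 10 members highest here. Of its 1664 UMIs, 980 lay in 7 pigment cells with Sox10, described further on, which held the pigment genes of the list and neither Rax nor Six6, and without these cells, a choice made after seeing the data, it stood at 4.003 (3.71 to 4.31). The neural crest and Schwann precursor list stood at 4.49 (4.19 to 4.81) against 0.885 in Myoblast/Cardiomyocyte, with 5 of 5 members highest here. The floor plate list stood at 24.1 (23.4 to 24.8) against 7.22 in Gut Mesenchyme/Amniotic Mesoderm (8 of 12), the roof plate and cortical hem list at 15.9 (15.4 to 16.5) against 7.84 in Chondrocyte (10 of 15), and the choroid plexus list at 29.7 (28.9 to 30.5) against 19.7 in Epithelial Cell (11 of 17 in the table). The place of the choroid plexus list rested on Ttr, which lay in few cells. Without it, a choice made after seeing the data, the list stood at 16.3 (15.8 to 16.9) against 19.5 in Epithelial Cell, and with it F0_9 (19.3) and F1_mix (18.1) were below the pooled level of Epithelial Cell. The notochord list was low, at 0.482 (0.387 to 0.594) against 0.225 in Neuronal Progenitor, with 3 of 4 members highest here. It stood at 1.09 in F1_1 and 0.226 in F1_mix, and fell to 0.2997 without F1_1. The cell type was drawn from these same genes, so every comparison with another type is a description with no test.

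**Figure D1:**
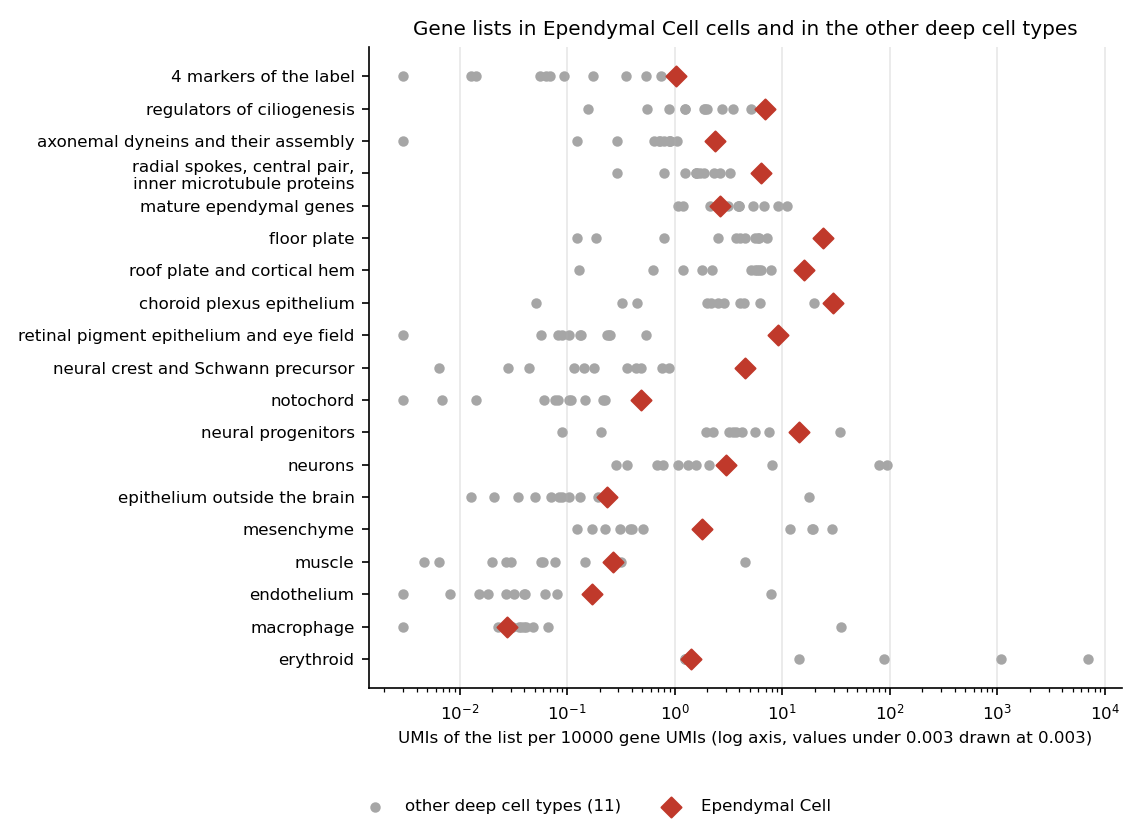
Summed level of each list (UMIs per 10000 gene UMIs, log axis) in the ependymal-labelled cells and in each of the other 11 deep cell types, 1 point per type, with values under 0.003 drawn at 0.003. The labelled cells lie above every other type for the eye, neural crest, floor plate and roof plate lists, at 9.12, 4.49, 24.1 and 15.9, for the choroid plexus list with Ttr in it, at 29.7, and below 8 other types for the mature ependymal genes.

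Among the floor plate genes, Shh, the ventral midline morphogen, had a level of 1.97 in 27 cells, against 0.868 in Epithelial Cell. The founders F0_8 and F0_9 had 1.06 and 0.497 of it, F1_1 had 4.83 and F1_mix 1.68. F1_1 was the highest, and 4 cells with the notochord gene T, described further on, hold part of these UMIs. Spon1, an extracellular matrix protein of the floor plate, stood at 4.03 in 56 cells against 0.561 in Neuronal Progenitor, and 21 of these cells held Shh and 23 held Sox10. By sub-group it stood at 20.4 in sub-group 4 and 5.76 in the crest-like sub-group 3. Ntn1, which attracts commissural axons, stood at 1.32 in 29 cells against 0.900 in Neuronal Progenitor, and Foxa2, the forkhead factor of the floor plate, at 0.334 in 18 cells against 0.310 in Epithelial Cell. Of the 27 cells with Shh, 16 also held Foxa2 and 20 held Ntn1.

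The roof plate genes were led by Wnt signalling. Rspo3, which amplifies Wnt signals, stood at 3.44 and 3.22 in founders F0_8 and F0_9 and at 1.28 and 2.65 in F1_1 and F1_mix, with 2.67 pooled in 34 cells against 1.28 in Gut Mesenchyme/Amniotic Mesoderm. Lmx1a, the homeobox factor of the roof plate, stood at 1.16 in 43 cells, Wnt1 at 0.587 in 16 cells and Wnt3a at 0.329 in 21 cells, the last 2 against 0.138 and 0.107 in Neuronal Progenitor. Bmp6 stood at 0.833 in 41 cells against 0.145 in Neuronal Progenitor. Of the 34 cells with Rspo3, 30 also held Lmx1a and 15 held Wnt1. Gdf7, a BMP ligand of the roof plate, was represented by 1 UMI. The targets of these signals were not set apart in the same way, since the BMP response list (15.7) and the Wnt response list (2.88) were each exceeded in 3 other deep types and the Hedgehog response list (4.42) in 5. Within the Wnt list, Axin2, a feedback inhibitor induced by Wnt, was highest here at 0.471.

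The choroid plexus list was carried by few cells. Ttr, the thyroid hormone carrier that marks choroid plexus epithelium, gave 2436 UMIs in 10 cells, a level of 13.4 against 0.178 in Epithelial Cell. It stood at 31.5 in F0_8 and 6.46 in F0_9, and at 14.5 in F1_1, while F1_mix had 0.0205. There it rested on 1 UMI, and 64.8% of all Ttr UMIs lay in 3 cells. Folr1, a folate receptor of the same epithelium, was more even, at 0.550, 0.497, 0.355 and 0.554 in the same order, in 33 cells, against 0.0543 in Epithelial Cell. Otx2, a homeobox factor of the choroid plexus and of other head tissues, stood at 1.06 in 46 cells against 0.880 in Neuronal Progenitor. Some genes of the functioning plexus were scarce, with Kcne2 at 0.0493, Aqp1 at 1 UMI and Kl at none. Other genes of the list had more. Htr2c gave 52 UMIs, all in cells with 30 or more UMIs of Ttr. In F0_8, F0_9, F1_1 and F1_mix, Clic6 gave 18, 10, 3 and 13 UMIs and Enpp2 28, 9, 17 and 22. Sostdc1 gave 21, 19, 26 and 22 in the same order.

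Pigment genes set these cells apart more than any other group. Pmel, which forms the fibrils of the pigment granule, stood at 5.58 and 1.49 in founders F0_8 and F0_9 and at 0.922 and 4.18 in F1_1 and F1_mix, and at 3.18 pooled in 15 cells against 0.0155 in Epithelial Cell. Dct and Tyr, enzymes of melanin synthesis, stood at 2.13 in 17 cells and 0.877 in 11 cells, against at most 0.0224 and 0.00388 elsewhere. Of the 160 UMIs of Tyr, the founders F0_8 and F0_9 held 92 and 15 and the F1 suspensions 2 and 51, with F1_1 first, and without F0_8 its level was 0.510. The eye field factors Rax and Six6 stood at 0.455 in 18 cells and 0.800 in 21 cells, and 14 cells held both. Sox10 and the pigment genes shared cells, since 7 of the 15 cells with Pmel, 7 of the 11 with Tyr and 12 of the 17 with Dct also held it. This factor of migrating crest and its glia stood at 0.970 in 31 cells, evenly with 1.12 and 1.06 in founders F0_8 and F0_9 and 0.828 and 0.861 in F1_1 and F1_mix, against 0.177 in Myoblast/Cardiomyocyte.

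**Figure D2:**
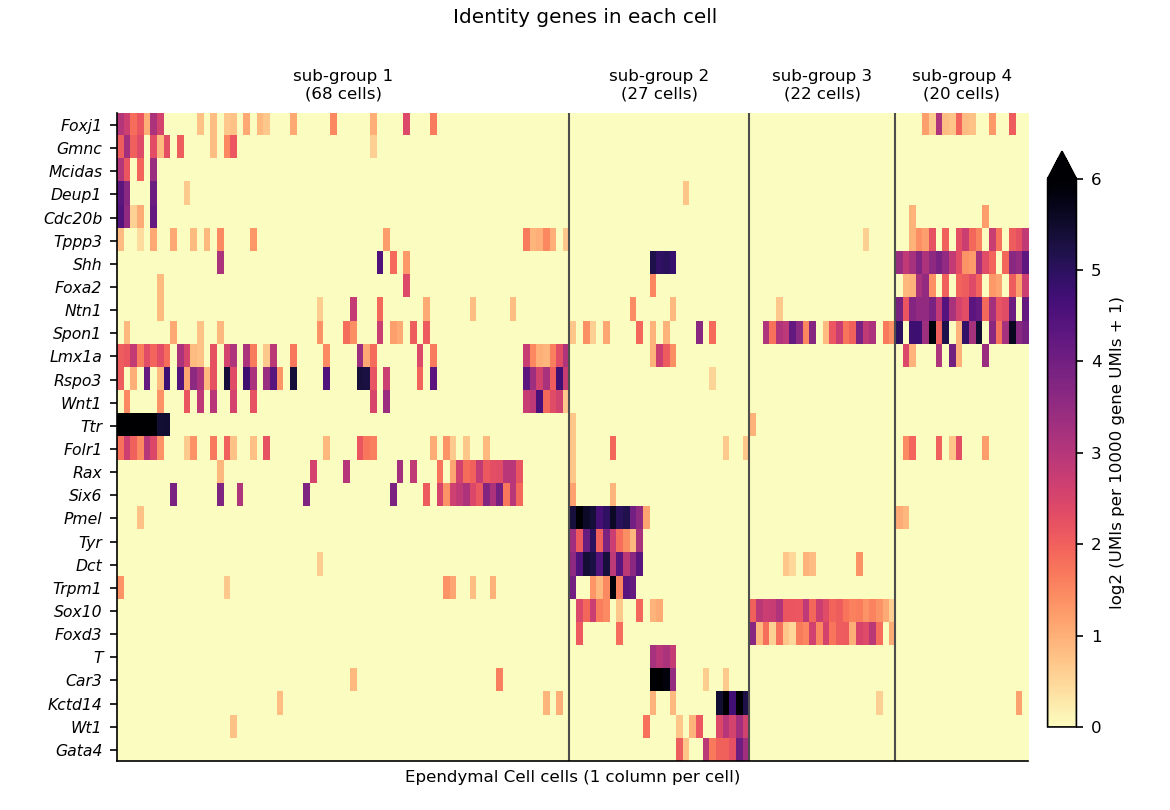
Identity genes in each of the 137 ependymal-labelled cells, with cells in columns ordered by sub-group and genes in rows, coloured by log2 of the UMIs per 10000 gene UMIs of that cell plus 1. Sox10, found in 31 cells, fills most of sub-group 3 and shares 7 of its cells with Pmel (15 cells) in sub-group 2, with Shh (27 cells) it shares 2, and with Rspo3 (34 cells) none.

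Neural progenitor genes were uneven over the labelled cells. Pooled, the neural progenitor list stood at 14.3 against 34.2 in Neuronal Progenitor, and none of its 12 genes was highest here. In the 20 cells of sub-group 4, 1 of the 4 sub-groups described further on, it stood at 43.6 (40.8 to 46.5), against 13.2, 2.19 and 13.3 in sub-groups 1, 2 and 3. Sox2, a factor of neural progenitors and of the midline, was found in 97 of 137 cells at 1.68, against 4.19 in Neuronal Progenitor, whereas Hes5, a target of Notch, stood at 0.411 against 3.67. The neuron list stood at 3.01, against 94.3 in Neuroectoderm/Glia. Cell cycle genes stood at 23.5, with 6 other deep types above them. Lists of other tissues were low, with epithelium outside the brain at 0.236, endothelium at 0.170, muscle at 0.269 (0.0856 without F1_1), macrophages at 0.0274 and mesenchyme at 1.78. Globins gave 1.43 against 6927 in Erythrocyte and 35.8 in free RNA.

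Set against the mean of Neuroectoderm/Glia, whose neuron list stood at 94.3 and neural progenitor list at 2.29, and Neuronal Progenitor, 698 of 2420 genes were higher and 1000 lower in every suspension. The largest ratios were those of Pmel (652-fold), Ttr (510-fold), Ifitm1 (357-fold), Kctd14 (356-fold) and Dct (165-fold), followed by Postn (77.7-fold), a matrix protein, and Metrnl (76.9-fold). The mean level in this pair of types was only 0.00488 for Pmel, 0.0262 for Ttr and 0.0129 for Dct, so these ratios rest on few UMIs below the line. Of the UMIs of Ifitm1 in the labelled cells, 248 of 318 lay in F1_mix, and of those of Kctd14, 412 of 476. Without F1_mix their levels fell from 1.74 to 0.524 and from 2.61 to 0.479, and without F0_8 that of Ttr went from 13.4 to 6.65. A gene with a wider base was Anxa2, a membrane-binding protein, at 36.8-fold in 77 cells. On the low side, the 4 smallest ratios were those of Slc17a6, Ina, Lhx1 and Nhlh2. Slc17a6, the vesicular glutamate transporter, had no UMI in the labelled cells against a mean of 1.01. Ina, a neuronal intermediate filament, stood at 0.0658 against 9.07, and the transcription factors Lhx1 and Nhlh2 at 0.011 and 0.0164 against 1.32 and 1.56. These means came almost wholly from Neuroectoderm/Glia, in which Slc17a6, Ina, Lhx1 and Nhlh2 stood at 1.96, 18.02, 2.60 and 2.99, whereas Neuronal Progenitor had 0.0578, 0.107, 0.0401 and 0.134. Other genes of the 15 were Dcx at 0.0384 against 3.42, Myt1l, a zinc finger factor of neurons, at 0.0384 against 2.51, Stmn3 at 0.104 against 6.01 and Mapt at 0.0713 against 2.94.

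Against all other deep types, 77 genes were higher in the labelled cells in each of the 4 suspensions at a level of 0.5 or more. The 20 with the largest ratio to the next type included Tyr, Pmel, Dct and Trpm1 of the pigment list, and Cdh19 and Egfl8. Cdh19, a cadherin of Schwann precursors, and Egfl8 were found in 30 and 20 cells. The broadest of the 20 was Cdh6, a cadherin of early neural and crest cells, at 6.48 in 82 cells against 0.844 in Gut Mesenchyme/Amniotic Mesoderm, followed by Glis3, a zinc finger factor, at 2.50 in 67 cells against 0.528. Sntb1 stood at 3.15 in 46 cells against 0.586, and Npr3, a natriuretic peptide receptor, at 1.28 in 49 cells against 0.239. No gene of the 20 was found in all 137 cells.

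The labelled cells were split into 4 sub-groups from their own most variable genes, so that the differences between sub-groups are a description. Sub-group 1 held 68 cells (49.6%), sub-group 2 held 27 (19.7%), sub-group 3 held 22 (16.1%) and sub-group 4 held 20 (14.6%). With the founders F0_8 and F0_9 first and F1_1 and F1_mix after them, sub-group 1 had 23, 18, 17 and 10 cells, sub-group 2 had 5, 3, 8 and 11, sub-group 3 had 6, 8, 4 and 4, and sub-group 4 had 6, 3, 3 and 8. Every sub-group was present in every suspension. Median depth was 11416 gene UMIs in sub-group 1, 15545 in sub-group 2, 19183 in sub-group 3 and 10486 in sub-group 4.

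Sub-group 4 was floor plate-like. Its floor plate list stood at 103 (98.9 to 108), against 20.3, 8.79 and 6.10 in sub-groups 1, 2 and 3, and its leading genes were Ntn1 (10.5 in 19 of 20 cells), Ttc6, Grin2a, Vtn and Jhy, with Foxa2 at 2.60 in 15 of 20 cells. Its cell cycle list was the lowest of the 4, at 8.68. Sub-group 3 was neural crest and Schwann precursor-like, with that list at 16.3 (15.1 to 17.5) against 0.177, 2.89 and 0.283 in sub-groups 1, 2 and 4, and with Egfl8, Moxd1, Gfra3 and Afap1l2 among its leading genes. Foxd3, the crest factor, was found in 21 of its 22 cells. Its cell cycle list was the highest, at 38.9.

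Sub-group 1 held dorsal and anterior identities together, along with a small set of cells with Hoxc genes. Its roof plate list stood at 30.9 (29.7 to 32.2), against 4.13, 1.95 and 10.0 in sub-groups 2, 3 and 4, and its choroid plexus list at 59.2 (57.5 to 60.9) against 6.30, 2.17 and 18.4. Without Ttr, whose UMIs lay almost all in 8 of its cells, that list stood at 28.4 (27.3 to 29.6) against 6.27, 2.14 and 18.4. Its leading genes were Ttr, Rspo3, Igfbpl1, Zic1 and Six6. Because these point to more than 1 tissue, it is called by its number. A finer split into 7 groups, chosen after seeing the data, took 13 cells led by Hmx1, with Vax2, out of it, and 7 more with Gdf10 and Hoxc genes, and left 48. Hmx1, a homeobox factor of the eye and ear, was found in all 13 of the first and in no other labelled cell. Gdf10 and Hoxc9 stood at 1.96 and 2.20 in the 7 cells, against 0.023 and 0.0689 in the rest.

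The label markers followed this split. Summed, they stood at 1.38 (1.13 to 1.66) in sub-group 1 and 3.54 (2.78 to 4.44) in sub-group 4, against 0.0249 in sub-group 2 and 0.0238 in sub-group 3. Foxj1 had no UMI in sub-groups 2 and 3. The regulators of ciliogenesis stood at 9.94 and 17.3 in sub-groups 1 and 4, against 1.10 and 1.81 in sub-groups 2 and 3, and the spokes at 9.60 and 12.4 against 1.64 and 1.45. The Foxj1 UMIs of sub-groups 1 and 4 lay in few cells, with 75.3% of them in 10 of the 29 cells that held any. Within the cilium genes these 2 sub-groups differed. Gmnc, Mcidas and Ccno had UMIs in sub-group 1 alone, in 12, 4 and 4 of its cells. Dnah9, Fam183b and Tppp3 instead stood at 1.51, 2.60 and 2.41 in sub-group 4 and at 0.063, 0.101 and 0.266 in sub-group 1. Of the 29 cells with Foxj1, 11 held Shh, 19 held Lmx1a and 25 held Sox2, and none held Sox10.

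**Figure D3:**
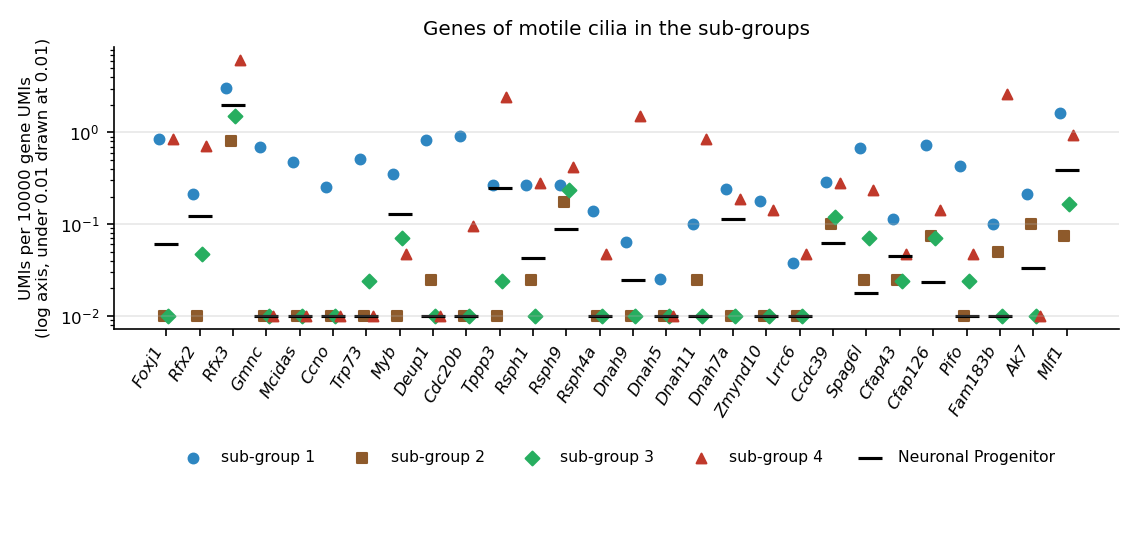
Levels of the cilium genes in the 4 sub-groups (UMIs per 10000 gene UMIs of the sub-group, log axis), 1 point per gene and sub-group, with the level in Neuronal Progenitor as a bar and values under 0.01 drawn at 0.01. Gmnc, Mcidas and Ccno lie above the low end of the axis in sub-group 1 alone, Dnah9 (1.51), Fam183b (2.60) and Tppp3 (2.41) are highest in sub-group 4, and sub-groups 2 and 3 lie low for most genes.

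The authors' clusters, numbered before noise reduction, were also drawn upon by the label unevenly. Of all cells with the label, 91 came from cluster 2, in which Neuronal Progenitor was the most frequent other label, 27 from cluster 13 (Myoblast/Cardiomyocyte), 15 from cluster 0 (Gut Mesenchyme/Amniotic Mesoderm) and 4 from cluster 10 (Epithelial Cell). Sub-groups 1 and 4 were from cluster 2 for 66 of 68 and 20 of 20 cells, sub-group 3 from cluster 13 for 21 of 22, and sub-group 2 from clusters 0, 2, 10 and 13 for 13, 4, 4 and 6.

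Sub-group 2 was the most mixed, and its cells were described in small sets chosen after their values were seen. Of its 27 cells, 11 held 3 or more UMIs of Pmel, and these fell apart by Sox10. In the 7 with Sox10 (4 in F0_8, 1 in F0_9, none in F1_1 and 2 in F1_mix), Pmel ranged from 12 to 89 UMIs per cell, Dct from 20 to 76 and Tyr from 3 to 62. All 7 held Kit and Ednrb, receptors that neural crest pigment cells depend on, at 3.98 and 7.62 against 0.117 and 2.74 in the other labelled cells. None held Otx2, Rax, Six6, Pax6, Lhx2 or Rlbp1. In the 4 without Sox10 (1 in F0_9, 2 in F1_1, 1 in F1_mix), Pmel ranged from 17 to 61 UMIs per cell, and Trpm1, a channel of pigment and retinal cells, from 12 to 64 against 0 to 3 in the cells with Sox10. All 4 held Otx2 (3 to 12 UMIs), Lhx2 (1 to 9) and Rlbp1, a retinal carrier protein (1 to 7), and none held Kit or Ednrb. The first set came from cluster 13 for 6 of 7 cells and the second from cluster 2 for all 4. The pigment genes were thus shared by a set of cells with crest genes and a set with eye genes.

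**Figure D4:**
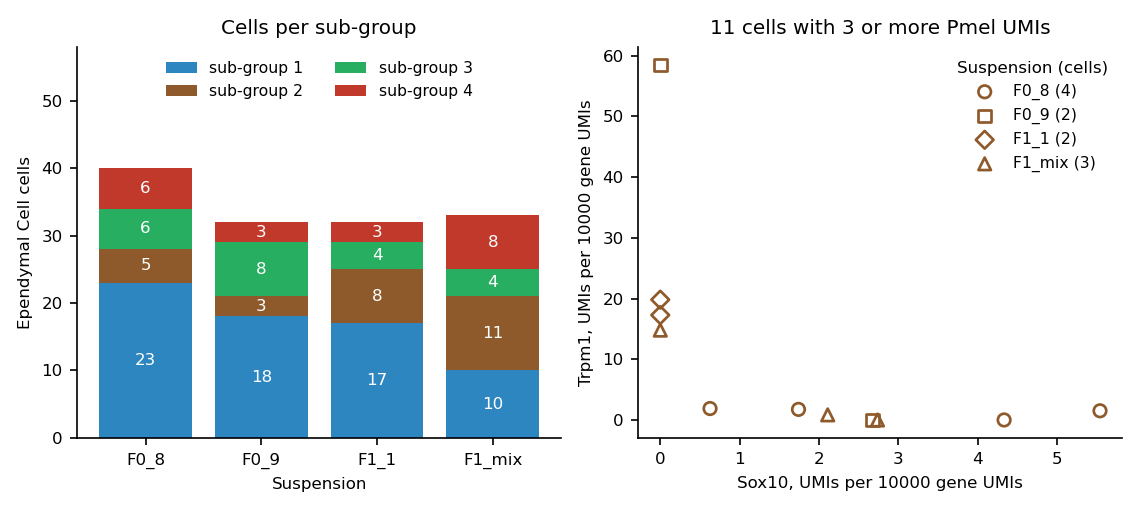
Left, ependymal-labelled cells per suspension (bars from 0), divided into the 4 sub-groups. Right, level of Trpm1 against level of Sox10 (UMIs per 10000 gene UMIs of the cell) in the 11 cells with 3 or more Pmel UMIs, 1 point per cell and a symbol per suspension. Sub-group 2 has between 3 cells (F0_9) and 11 cells (F1_mix), and the 4 cells high in Trpm1 lie at 0 for Sox10.

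A further 4 cells of sub-group 2 (1 in F0_8 and 3 in F1_1) held all 39 UMIs of T, the factor of the notochord, at 6 to 17 per cell. They also held Shh at 27 to 69 UMIs per cell, the keratins Krt8 (15 to 34) and Krt18 (5 to 16), and Car3, a carbonic anhydrase, at 12 to 141. Spp1, a secreted matrix protein, ranged from 3 to 270, and 90.6% of its UMIs lay in 1 cell. Foxj1, Sox2 and Noto had no UMI in them. All 4 came from cluster 10.

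In 5 more cells (1 in F1_1 and 4 in F1_mix), Kctd14 ranged from 46 to 194 UMIs, Wt1, a factor of the kidney, gonad and mesothelium, from 6 to 16, Gata4 from 4 to 28 and Amhr2, the receptor of anti-Müllerian hormone, from 2 to 7. The remaining 7 cells of sub-group 2 all held Col3a1 (1 to 29 UMIs), with Upk3b and Upk1b each in 3 of them and in no other labelled cell. Neither set had a UMI of Foxj1, Sox2, Sox10 or Otx2, and all of these cells came from cluster 0.

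Cells with much Ttr, all in sub-group 1, held regulators of multiciliation. The 8 cells with 30 or more UMIs of Ttr (5 in F0_8, 2 in F0_9, 1 in F1_1, none in F1_mix) held 33 to 627 UMIs each, 2434 of all 2436. Foxj1 was found in 7 of the 8, against 29 of the 137 labelled cells, Gmnc in 7 of the 8, against 12 of the 137, Lmx1a and Otx2 in all 8. Mcidas, which with E2f factors turns on the multiciliated programme, gave 38 UMIs in 4 of these cells and none in any other labelled cell. Ccno, a cyclin needed to amplify centrioles, gave its 20 UMIs in the same 4 cells, and Cdc20b gave 73 of 75 UMIs in the set. Deup1, which builds the deuterosomes that make centrioles, gave 65 of 67 UMIs in 3 of them, at up to 28 per cell. Ccno (chr13:112987802-112990778), Mcidas (chr13:112993581-113000394) and Cdc20b (chr13:113034975-113121019) are neighbours on chromosome 13 in GRCm38.p6. In the cells with Ttr, the axonemal genes Rsph1 and Pifo were present at 18 UMIs of 28 and 32 of 36, and genes of the functioning plexus were partly present, with Kcne2 in 3 cells, Clic6 in 6 and Aqp1 in none.

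To ask how many cells hold an identity at equal depth, each cell was thinned to 5000 gene UMIs, which left 135, and a list was called held at 3 or more UMIs. The eye list was held by 29 cells (21.5%, exact binomial 95% interval 14.9 to 29.4) against at most 3.33% in another deep type, 7 of them the pigment cells with Sox10, without which it was 22 of 128 (17.2%), and the crest list by 27 (20%, 13.6 to 27.7) against at most 5.31%. The dyneins were held by 18 cells (13.3%, 8.10 to 20.3) against at most 2%, and the regulators by 57 (42.2%), close to the 41.1% of Neuronal Progenitor. For the floor plate (64.4%), roof plate (50.4%) and choroid plexus (61.5%) lists, the whole list counts broadly used genes such as Slit2 and Igfbp2, and Epithelial Cell held the choroid plexus list in 87.3% of cells. With only genes under 1 UMI per 10000 in every other deep type, a choice made after seeing the data, 38 cells held the floor plate list (28.1%), 42 the roof plate list (31.1%) and 31 the choroid plexus list (23.0%). On these narrow lists 17 cells held none of the 5 identities, 71 held exactly 1, 45 held a pair and 2 held 3. The most frequent pair was roof plate with choroid plexus, in 21 cells, followed by floor plate with crest, in 8. No cell held roof plate with eye or choroid plexus with crest. The narrow floor plate list kept Spon1, which was also present in the crest-like sub-group 3, and 7 of the 22 cells of that sub-group held this list. Its share and the count of pairs therefore include cells that a shared gene may place there.

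EGFP was used as a measure that played no part in the label, since the authors removed it before clustering. It stood at 14.1 in F0_8 and again in F0_9, at 24.2 in F1_1 and at 11.3 in F1_mix, against 13.0, 11.55, 26.0 and 11.51 in the other deep types outside red blood cells. The labelled cells were higher in both founders and lower in both F1 suspensions, and the mean log2 ratio of 0.067 ± 0.175 (SD, n = 4 suspensions) did not pass the exact two-sided sign-flip permutation test (p = 0.625, smallest possible 0.13). At least 1 EGFP UMI was found in 136 of 137 cells.

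Founders and F1 embryos were compared on the summed counts of the labelled cells in each suspension, with 2 suspensions a group, 1 of which mixes embryos. Sex was mixed within the generations and was not part of the fit. Of 7485 genes tested, 1 was called (0.0134%) by edgeR's quasi-likelihood test at a Benjamini-Hochberg adjusted p under 0.05, and 516 (6.89%) had an unadjusted p under 0.05. The called gene was Tagln, an actin-binding protein of smooth muscle, which is in none of the lists. Founders F0_8 and F0_9 had 0.102 and 0.118 of it, and F1_1 and F1_mix had 2.37 and 1.25, a log2 difference of −4.02 ± 0.43 (SE, founders minus F1; adjusted p = 0.0257 by edgeR's quasi-likelihood test). The groups did not overlap, which was so for 35.8% of all genes tested. The difference rested on few cells, since 55.6% of the 171 UMIs lay in 1 cell and 90.1% in 3, and 58.5% in sub-group 2, and the cells with Tagln numbered 3 and 4 in the founders and 5 in each F1 suspension, with 5, 5, 100 and 61 UMIs in them. Without sub-group 2, a fit chosen after seeing the data, Tagln was no longer among the genes tested and 0 of 6510 genes were called by the same edgeR test, with 320 at an unadjusted p under 0.05.

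The next 9 genes by edgeR's Benjamini-Hochberg adjusted p lay between 0.061 and 0.0758 and did not pass. All 9 passed (0.0071 to 0.0466) when the 2 cells under 5000 gene UMIs were left out, and 5 of them, Tox, Tenm3, Kctd14, Egfem1 and 6330411D24Rik, passed in DESeq2. Tenm3, a teneurin that guides neural connections, was the most widely found of them, in 127 cells, at 15.9 and 19.2 in founders F0_8 and F0_9 and at 9.44 and 6.54 in F1_1 and F1_mix (log2 difference 1.12 ± 0.17, SE). Tox, a nuclear factor, stood at 2.20, 2.20, 0.639 and 0.349 in the same order, with 74.7% of its UMIs in sub-group 1. Both were higher in each founder than in each F1 suspension. Kctd14 stood at 0.0204, 0.0709, 1.42 and 8.45, and 98.9% of its UMIs came from sub-group 2, whose cells numbered 5, 3, 8 and 11 in these suspensions. Akr1cl and Myl7 likewise had 100% and 96.6% of their UMIs in sub-group 2. Without the cells of sub-group 2, the log2 difference went from −2.02 to −0.061 for Zfpm2 and from −1.47 to −0.449 for Acaa2, while it was 1.05 for Tenm3, 1.90 for Tox and 1.25 for Egfem1. The other genes of the 10 were then no longer among those tested.

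Of the 288 listed genes, 142 were tested between the generations and none passed edgeR's test after Benjamini-Hochberg adjustment, while 37 (26.1%) had an unadjusted p under 0.05, against 6.89% of all genes. Of the 11 spoke and microtubule genes tested, 6 had an unadjusted p under 0.05, all higher in the founders, with a median log2 difference of 1.26 in the list. Among the regulators it was 4 of 9, all higher in the founders, among the cell cycle genes 6 of 12, of which 4 were lower, and among the epithelial keratins and junctions 2 of 4, both lower. Dynlrb2 was the foremost, with 22 and 32 UMIs in the founders and 5 and 1 in F1_1 and F1_mix (adjusted p = 0.142 by edgeR), and 56 of its 60 UMIs lay in the 8 cells with Ttr, of which 7 came from founders. Of the 4 regulators (Mcidas, Myb, Cdc20b and Deup1), Mcidas gave all 38 of its UMIs in those 8 cells. Cdc20b gave 73 UMIs there and 2 elsewhere, and Deup1 gave 97.0% of its UMIs in 3 of them. Of the spoke and microtubule genes, Pifo gave 32 UMIs there and 4 elsewhere. Shh went the other way, at a log2 difference of −2.05 (adjusted p = 0.210 by edgeR), with 168 of its 359 UMIs in the 4 cells with T. Without sub-group 2, which holds those cells, the log2 difference of Shh was −2.02 (adjusted p = 0.0618 by edgeR). In the same fit, that of the 2 keratin and junction genes went from −1.09 to 0.114 for Krt18 and from −0.691 to −0.829 for Tjp1. The number of cells with Ttr differed between suspensions, and its part in the differences of Dynlrb2, Mcidas, Cdc20b, Deup1 and Pifo was not tested.

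**Figure D5:**
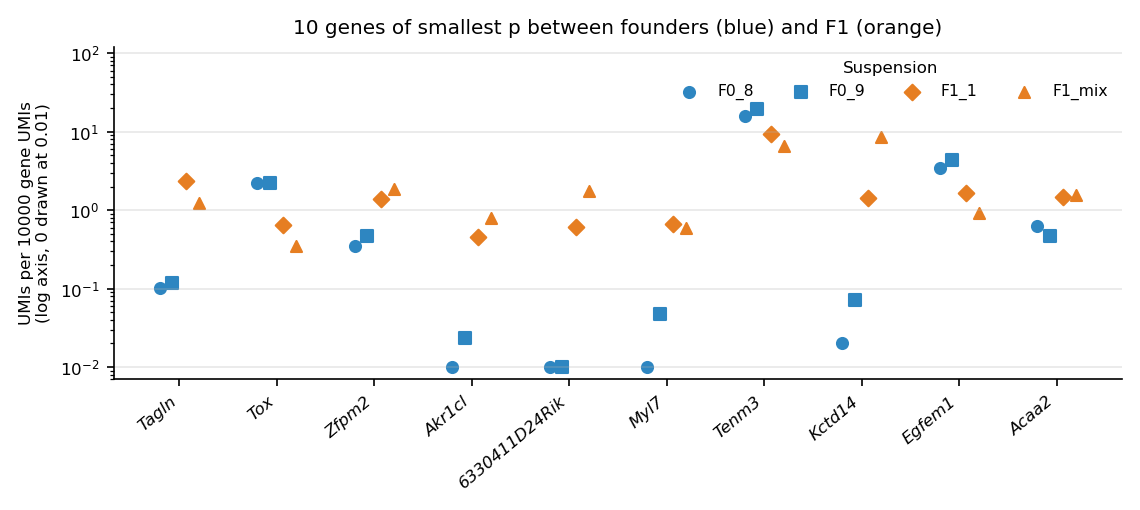
Level of the 10 genes with the smallest adjusted p in the comparison of generations (UMIs per 10000 gene UMIs, log axis), with 1 point for each of the suspensions F0_8, F0_9, F1_1 and F1_mix and values of 0 drawn at 0.01. Tagln, the only gene called, lies at 0.102 and 0.118 in the founders and at 2.37 and 1.25 in the F1 suspensions.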

How the data were processed

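Cells of 4 CellPlex-tagged suspensions had been minced and dissociated with trypsin, sorted and run as 1 droplet library of 3′ v3.1 chemistry, and each suspension is a sample of 1 embryo or of mixed embryos with no repeat preparation. The deposited matrices hold UMI counts per gene that the authors made against GRCm38 with EGFP added, by the release of Cell Ranger that the headers record (7.2.0). The methods name SoupX, DoubletFinder, RECODE and Seurat for the deposited table of cells, from which 4 columns were used (library, suspension, cell type and cluster number before noise reduction) and 18 were not. The sources used here do not say how clusters were named. Neither SoupX nor a further doublet caller was applied to the counts used.

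The 12 oligo features stayed out of all sums. The members and gene lists were chosen with earlier results of these data known. Levels are summed UMIs per 10000 gene UMIs with exact Poisson intervals, shares have exact Clopper-Pearson intervals, and a count of 0 was bounded by 3 counts or by its exact upper limit. Sub-groups came from Ward clustering on 10 principal components of the 1000 most overdispersed genes, without EGFP, sex-linked and mitochondrial genes. Genes were named if listed, if among the 20 largest ratios to the highest other deep type (level of at least 0.5 and highest in every suspension), the 15 largest or smallest ratios to the mean of Neuroectoderm/Glia and Neuronal Progenitor (level of at least 1), the 10 smallest adjusted p, or the 5 leading genes of a sub-group, and others were named after their values were seen. Generations were compared by edgeR 4.0.16 (quasi-likelihood test with Benjamini-Hochberg adjustment, TMM factors, default expression filter) on counts summed per suspension, with DESeq2 1.42.0 as an alternative. Tested on simulated counts for this comparison (7135 genes), it called 92 of 98 genes changed by 4-fold, 100 of 100 changed by 8-fold and 6 of 6937 unchanged genes. In the data, Akr1cl, Kctd14 and 6330411D24Rik had log2 differences of −5.55, −6.77 and −8.79 and were not called. They had 86.4%, 76.9% and 76.6% of their UMIs in 3 cells, so the simulated recovery need not hold for such genes. Free RNA was taken from 53828 droplets of 100 to 300 gene UMIs. Gene positions and promoters came from RefSeq for GRCm38.p6, and the genome of an older build was not used. Some genes that the rules would name are not reported here.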

Additional observations from a re-analysis of the deposited data

Results flagged for a closer look

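In 4 of 32 values compared over the 4 suspensions of the labelled cells, a single suspension lay far from the other three by Dixon's criterion, which chance meets in about 1 in 20 groups. The mature ependymal genes stood at 2.05 UMIs per 10000 gene UMIs in F1_mix and at 2.89 in each of the others. The neuron list stood at 4.66 in F0_8, against 2.15 to 2.52 elsewhere. The list of epithelium outside the brain stood at 0.449 in F0_9, against 0.164 to 0.183, and the epithelial keratins and junctions at 9.11 in F1_1, against 5.66 to 6.17.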

How the results depend on the processing

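No paired analysis was possible because founder and F1 suspensions share no replicate number. The number of genes called between the generations by edgeR's quasi-likelihood test (1 as reported) was 1 with relative log expression factors, 10 with DESeq2, 233 with no expression filter, 20 with cells of at least 5000 gene UMIs only, and 0 without the cells of sub-group 2, and it ran from 10 to 205 when a suspension was left out, where the lone suspension of its generation is assumed to vary like the others (10 without F0_8, 34 without F0_9, 205 without F1_1 and 75 without F1_mix). Tagln was called in each of these fits in which it was tested. The cause of the larger counts was not tested. The mean log2 ratio of EGFP turned from 0.067 to −0.0852 with the mean over cells and ran from −0.00592 to 0.126 with a suspension left out, the lowest without F0_9. As a mean over cells, the mature ependymal list stood at 3.14, the roof plate list at 17.8, neural progenitors at 16.3, forebrain at 2.76 and midbrain and isthmus at 2.83, and with free RNA subtracted mesenchyme stood at 1.34 and erythroid genes at 0. The other lists moved by less than the spread between suspensions, and so did all 30 without mitochondrial genes, in cells of at least 5000 gene UMIs and with each suspension left out. Cells holding a list depended on the threshold, the depth and the list. The floor plate list was held by 83.0% at 1 UMI or more, 52.6% at 5, 28.1% with the narrow list, 48.2% at a depth of 2000 gene UMIs and 83.9% without thinning. In the same order the roof plate list gave 77.0%, 38.5%, 31.1%, 32.8% and 71.5%. The choroid plexus list gave 83.0% at 1 UMI or more, 23.0% narrowed, 40.1% at the lower depth and 81.8% without thinning, the eye list 31.9% at 1 UMI and 13.9% at the lower depth, and the crest list 32.6% at 1 UMI. The largest sub-group fell from 68 cells to 55 with 5 groups and 48 with 7. The choroid plexus list stood at 16.3 without Ttr, and the eye list at 4.003 without the pigment cells with Sox10. The narrow lists, these exclusions, the 7 groups and the fit without sub-group 2 were chosen after seeing the data. With 137 cells, a gene at 0 may still have had a level of up to 0.0202.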

Other observations

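Genes that mark positions along the neural tube were found in the labelled cells at low levels, and no list of them was higher here than in every other deep type. The forebrain list stood at 2.19 UMIs per 10000 gene UMIs (95% interval 1.98 to 2.42), the hypothalamus list at 0.850 (0.721 to 0.994), the midbrain and isthmus list at 1.92 (1.72 to 2.13) and the hindbrain and spinal cord list at 2.09 (1.88 to 2.31). Over the 4 suspensions the hypothalamus list was the most uneven, between 0.164 in F1_mix and 1.92 in F1_1, and it stood at 0.528 without F1_1. Between the sub-groups, the forebrain list stood at 4.20 in sub-group 1 and 0.0238 in sub-group 3, and the midbrain and isthmus list at 3.78 and 0.0238. Fgf8, the signal of the isthmus and of the anterior midline, stood at 1.33 in 20 of the 68 cells of sub-group 1 and at 0.944 in 2 of the 20 cells of sub-group 4, with no UMI in sub-groups 2 and 3. En1 and En2, homeobox factors of the midbrain and isthmus, were each found in 5 cells of sub-group 4, at 0.425. The otic list, given because Hmx1 is also used in the ear, stood at 0.641, against 4.07 in Epithelial Cell.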
